A study of Mus musculus with 18 samples.

Results

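Antisense long non-coding transcripts are RNAs annotated on the strand opposite to another gene. Here they are the 3301 rows of the transcript table whose annotated type is antisense or antisense_RNA, out of 115125 transcript rows. The 7 antisense rows of Kcnq1ot1 and Airn were left out. The rows belong to 2344 gene identifiers, and the antisense rows of one identifier were summed and are called a locus below. All 18 libraries were made from purified total RNA of 5G6GR cells, a mouse embryonic stem (ES) cell line with an inducible Gata6 fusion, grown without feeders in serum and leukemia inhibitory factor. For 15 of them, RNA diluted to 10 pg was amplified by RT-RamDA, a reverse transcription that nicks and displaces the cDNA so that the same RNA is copied repeatedly, followed by 17 cycles of PCR. There were 5 primer sets with 3 libraries each. N6 denotes random hexamers, NSR the not-so-random primers designed to avoid ribosomal RNA (rRNA), and dT oligo(dT), while the mixtures N6dT and NSRdT combine dT with one of the others. The other 3 libraries, called bulk, were made from 200 ng with N6 primers, removal of rRNA by RNase H and 7 cycles of PCR.

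Some antisense RNAs lower or silence the gene across from them, as Tsix does for Xist at the X inactivation centre and Nespas does in the imprinted Gnas cluster. Others are by-products of shared promoters, or have no known role. Like other long non-coding RNAs, they may be spliced and polyadenylated or may lack a poly(A) tail. Oligo(dT) anneals to a poly(A) tail or to a run of A inside the RNA, whereas N6 and NSR can start anywhere along it.

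The annotated lengths ran from 75 to 10303 bases, with a median of 733. GENCODE vM21, on the GRCm38 build (mm10), held 3220 of the rows at the same length, and 81 had no match. Of the matched rows, 54.1% overlapped an exon of a gene on the other strand, 31.4% lay across such a gene without touching its exons, and 14.5% had no gene opposite. In 353 matched rows at least 50% of the 31-base words also occurred, reversed and complemented, in another gene's transcript. The sources used here do not give the strand of counting, so for such rows reads from the antisense RNA and from the gene opposite cannot be told apart.

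The transcript ends below belong to 8 loci described further on, picked after their values were seen, and show what an annotated end with or without a poly(A) signal looks like. Each line gives the last 60 bases of the row with the largest mean estimate, 5′ to 3′, from GENCODE vM21, with AATAAA or ATTAAA in capitals where either lies in the last 50 bases. The first 4 loci were lower with dT and the last 4 were higher with dT.
Gm20628, chr3:96267075-96267134, minus strand: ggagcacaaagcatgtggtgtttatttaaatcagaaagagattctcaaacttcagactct
Gm43956, chr6:66991080-66991139, minus strand: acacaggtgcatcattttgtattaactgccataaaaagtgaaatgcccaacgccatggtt
4933427J07Rik, chr2:128955671-128955730, minus strand: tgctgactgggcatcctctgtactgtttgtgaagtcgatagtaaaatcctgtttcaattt
Tsix, chrX:103484898-103484957, plus strand: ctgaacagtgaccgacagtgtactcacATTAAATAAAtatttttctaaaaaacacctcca
Gm15564, chr16:35966753-35966812, minus strand: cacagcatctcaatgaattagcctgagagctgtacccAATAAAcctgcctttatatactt
Gt(ROSA)26Sor, chr6:113070398-113070457, minus strand: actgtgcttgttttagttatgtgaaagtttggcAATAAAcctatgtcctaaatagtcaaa
AA465934, chr11:83294573-83294632, plus strand: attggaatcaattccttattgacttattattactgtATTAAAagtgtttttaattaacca
4930566F21Rik, chr5:31486633-31486692, minus strand: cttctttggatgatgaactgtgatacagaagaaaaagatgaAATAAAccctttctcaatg

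These 8 ends do not stand for the rest. Gm37335 and Gm37401, also higher with dT, held no signal in that stretch, while Nespas, Gm13571, 1700034P13Rik, Gm26632 and Gm13165, lower with dT, did. Over all 3220 matched rows, 42.2% held AATAAA or ATTAAA on their own strand in the last 50 bases. A match of letters is a description of the annotated end and not evidence of its use.

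Libraries held between 5333546 and 10234690 estimated counts, ERCC spike-in rows left out. Rows annotated as rRNA or encoded in mitochondrial DNA took 24.9% to 32.8% of the counts in the 4 random-primed sets, 9.41% to 9.92% with dT and 2.25% to 2.59% in bulk. Summed ES cell markers were 1438 to 5568 CPM (counts scaled to the library total) with none of the 10 at 0. Summed markers of primitive endoderm, the fate that Gata6 drives, ran from 958 to 10520 CPM in bulk, where replicate 2 was highest, and from 399 to 773 CPM in RT-RamDA. Whether the 3 libraries of a set trace to different cultures is not stated in the labels, so p-values here measure the spread between libraries, which may be technical.

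Far fewer antisense rows were seen from 10 pg than from 200 ng, and fewest with dT alone. After each library was thinned to 5333295 counts, the 3 bulk libraries detected 1422, 1492 and 1444 rows at 1 count or more. The dT libraries detected 427, 378 and 403. N6 libraries detected 653, 612 and 649, and NSR libraries 731, 688 and 705. With dT added, N6dT libraries detected 698, 693 and 699 and NSRdT libraries 756, 747 and 701. The dT values lay below every other library and the bulk values above every other. The totals matched by thinning include rRNA and mitochondrial rows, so depth over the other rows was not equal, and with those rows left out first the bulk mean was 1343. Without thinning the means were 439.7 rows with dT, 685 with N6 and 1712 in bulk.

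Detection also repeated less often from library to library at the low input. Of the rows seen in any library of a set, all 3 libraries held 13.6% with dT, 20.3% with N6, 23.0% with NSR, 22.1% with N6dT, 25.4% with NSRdT and 49.8% in bulk. After thinning, 53 rows were detected in all 18 libraries, 303 in bulk only and 449 in RT-RamDA only, and 712 rows had no count anywhere before thinning.

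The summed antisense level did not follow the number of rows. It was 1921, 1933 and 1973 CPM with N6, 1861, 1946 and 1983 with N6dT, 2445, 2520 and 2728 with NSR and 2605, 2502 and 2520 with NSRdT. With dT it was 2536, 2605 and 2533 CPM, within the NSR range, and in bulk 3332, 3408 and 3542. A single locus, Gm15564, made up 39.2% of the dT sum and 13.8% to 20.9% of the other RT-RamDA sums. Without its row the means were 1555 CPM with dT, 1570 with N6 and 2090 with NSR. Every RT-RamDA library was given the same amount of diluted total RNA, and the sets differed in their primers. A difference between the sums of these sets is therefore not read as a difference in the antisense RNA supplied. Bulk differed in input and PCR cycles as well. The cause of the differences in these sums was not tested.

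**Figure D1:**
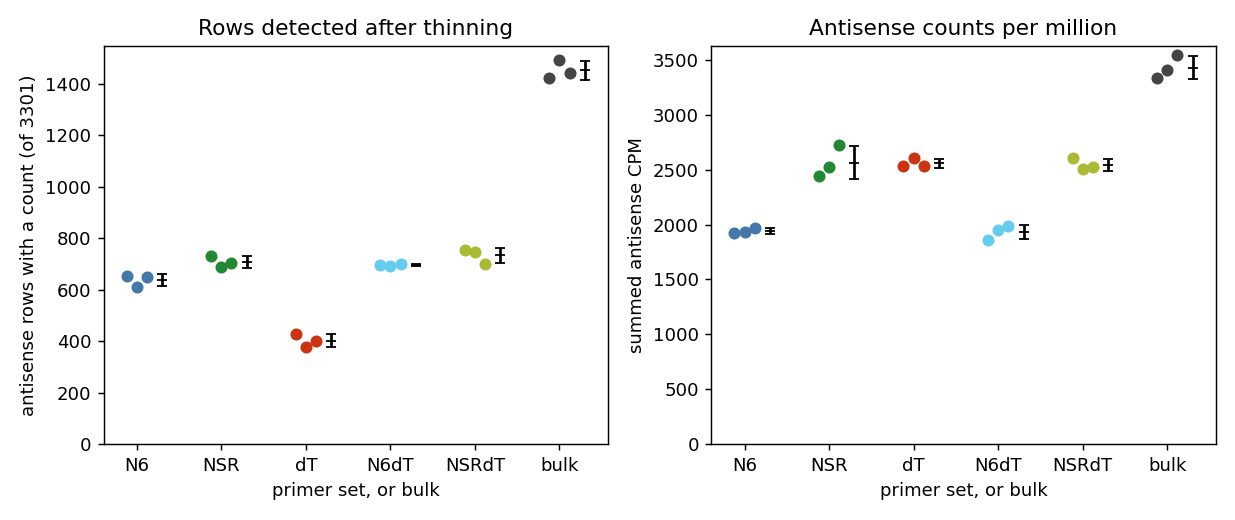
Left, antisense rows with 1 count or more after thinning, and right, summed antisense CPM, for each library (points), with mean and SD beside each group of 3. The dT libraries sit lowest in rows, between 378 and 427, while their CPM lie near those of NSR.

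Longer rows were detected more often in every set. Of the 820 rows under 500 bases, 7.48% ± 0.83 (SD, n = 3) were detected with dT, 12.0% ± 0.12 with N6 and 30.0% ± 1.0 in bulk. Of the 77 rows of 4000 bases and over, 40.3% ± 5.7 were detected with dT, 51.5% ± 5.2 with N6 and 77.9% ± 3.9 in bulk. The classes between them rose in order within dT, from 9.42% at 500 to under 1000 bases to 14.6% at 1000 to under 2000 and 20.6% at 2000 to under 4000. A longer transcript yields more fragments at the same number of molecules, so these shares are not shares of molecules.

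Among rows present in bulk at a mean of 1 CPM or more, length made less difference. These 500 rows were chosen by bulk, which was itself primed with N6, so rows copied mainly by dT could be left out. Of them, 41.7% ± 0.2 were detected in a dT library, 67.0% ± 2.6 with N6 and 70.9% ± 3.1 with NSR. The mixtures detected 70.8% ± 2.0 (N6dT) and 74.7% ± 2.0 (NSRdT). With dT the share was 41.1%, 39.0%, 40.5% and 41.8% in the 4 classes under 4000 bases and 56.1% in the 38 rows above it. With N6 it ran from 60.3% at 500 to under 1000 bases to 76.3% at 4000 and over. Rows of other types showed a smaller step from N6 to dT, from 75.01% to 56.1% in lincRNA (long intergenic non-coding) rows and from 69.5% to 60.9% in protein_coding rows. In retained_intron rows, transcripts that keep an intron, the shares were 64.9% with N6 and 39.6% with dT, close to the antisense values. These shares were not tested against each other.

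**Figure D2:**
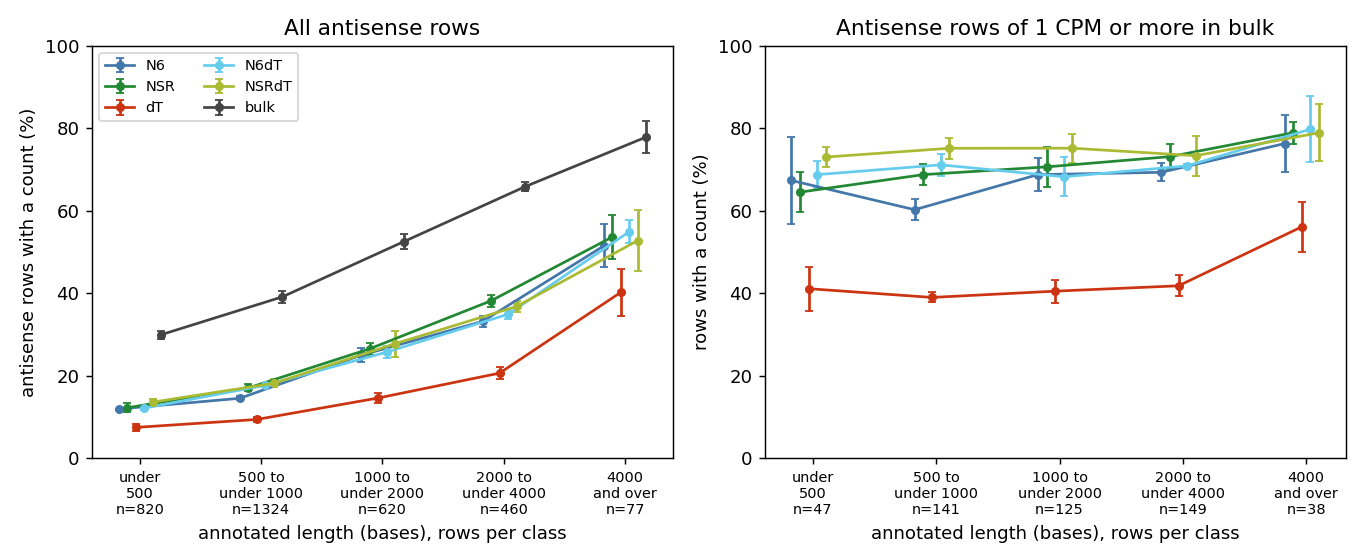
Share of antisense rows with a count by annotated length, for all rows (left) and for rows of 1 CPM or more in bulk (right), as the mean of 3 libraries with SD. Every set rises with length on the left, and on the right dT stays near 41% in the classes under 4000 bases.

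Random primers were compared with dT on the 6 N6 and NSR libraries against the 3 dT libraries. Antisense loci moved mostly one way: 55 were higher with random primers and 6 were lower, of 408 that passed the filter on low counts (edgeR quasi-likelihood test, Benjamini-Hochberg adjusted p below 0.05 over all 15695 loci). That is 13.5% higher, where 9.58% of all tested loci were called higher, and 1.47% lower, where 7.54% were. The median log2 fold change was 1.85 over the tested antisense loci and 0.13 over all. Only 17.4% of the antisense loci passed the filter, and a locus seen in one set alone could pass only through that set, so these counts do not speak for the rest. Scaling to library totals alone moved the median of all loci from 0.13 to -0.80 and the antisense split to 42 higher and 23 lower. Over all loci that scaling gave 825 higher and 4331 lower. Without dT replicate 1 or dT replicate 3 the 55 became 36, and with any other library left out 37 to 50. Over all loci the 1503 called higher became 1107 to 1118 without a dT library and 1196 to 1323 without another. Of the 55 antisense loci called higher, 42 had no overlap between the libraries and 27 had no count in any dT library. The same counts over all tested loci are not given here, so these are not read as particular to antisense loci.

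The share called higher grew with the level of the locus. Under 2 CPM it was 17 of 259 antisense loci (6.56%), where 5.08% of all tested loci were called higher. At 2 to 8 CPM it was 26 of 122 (21.3%) against 8.02% of all, and at 8 CPM and over 12 of 27 (44.4%) against 12.3%. The median antisense log2 fold change was 1.91, 1.85 and 1.03 in the same order. The rank correlation between length and log2 fold change was 0.07 over the 408 loci, given as a description since all points share the same 9 libraries. Protein-coding loci of 500 to under 1000 bases had a median of -1.40 and antisense loci of that length 1.51. At 4000 bases and over both medians were positive, 0.65 and 1.80.

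Gm20628 had the largest fitted change. It is a single-exon RNA of 3215 bases on the minus strand at chr3:96267075-96270289, and 28.0% of its bases lie opposite exons of other genes. Hist2h3b, a histone H3 gene, held 14.4% of its 31-base words on the opposite strand, and Gm20634 held 11.6%. Gm20628 measured 52.6, 50.7 and 64.7 CPM with N6, 87.2, 102 and 87.7 with NSR, and 0 in all 3 dT libraries. Bulk held 209, 188 and 182 CPM. The 3511 counts of N6 and NSR put it at least 464-fold higher than a floor of 3 counts per dT library (adjusted p = 2.23e-11). Hist2h3b itself was 39.7 ± 7.2 TMM-scaled CPM (n = 6) with random primers and 3.27 ± 5.55 (n = 3) with dT, a log2 fold change of 3.60 (SE 1.07).

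Replication-dependent histone mRNAs end in a stem-loop and not in a poly(A) tail. The motif searched on both strands was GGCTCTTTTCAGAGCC, the 16-base stretch with complementary ends found most often, in 13 of 72, in the last 100 bases of GENCODE's protein-coding histone (Hist) transcripts. It occurs on the strand opposite to Gm20628 at 2 places, and nowhere on its own strand. The place at chr3:96269128-96269157 overlaps an untranslated region of Hist2h3b. The place printed next, at chr3:96270164-96270193, plus strand, overlaps no annotated untranslated region. Its stem-loop is in capitals.
Opposite to Gm20628: cccaaaaGGCTCTTTTCAGAGCCactttag
Of the matched rows only 3 of 3220 held these letters on either strand, and in all 3 they lay on the opposite one. The other rows belong to Gm20632, opposite Hist2h2aa2, and Gm20633, opposite Gm20634. Of all 141767 GENCODE vM21 transcripts, 0.024% held them on either strand. Whether the reads counted for Gm20628 came from its own strand or from histone RNA cannot be told apart.

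Of 3 antisense RNAs with a known silencing role, Tsix and Nespas were higher with random primers and Snhg14, which silences paternal Ube3a, was not called, at -0.38 (SE 0.22). Tsix, 4306 bases in 4 exons at chrX:103431517-103484957, measured 30.3, 13.3 and 40.7 CPM with N6, 18.4, 41.5 and 35.5 with NSR and 13.3, 22.5 and 14.3 with dT, so on library totals the sets overlapped. After TMM scaling the lowest random-primed library had 18.5 CPM and the highest dT library 14.2, and the log2 fold change was 1.77 (SE 0.40, adjusted p = 0.00638). Xist, whose exons lie opposite 46.0% of the bases of Tsix, was 77.8 ± 29.4 TMM-scaled CPM (n = 6) with random primers and 1.00 ± 0.90 (n = 3) with dT, a log2 fold change of 6.24. Xist held 45.65% of the 31-base words of Tsix on the opposite strand, so reads counted for Tsix may include reads of Xist. Nespas, 2248 bases at chr2:174281237-174295436, measured 12.9 to 16.4 CPM with N6, 21.98 to 24.2 with NSR and 0, 0.691 and 4.57 with dT. Its libraries did not overlap and its log2 fold change was 4.31 (SE 0.91, adjusted p = 0.00377).

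Gm43956 and 4933427J07Rik were abundant loci called higher. Gm43956, 493 bases in 2 exons inside the span of Gng12 on chromosome 6, measured 216 to 245 CPM with N6, 300.5 to 362 with NSR and 44.2 to 81.4 with dT, a log2 fold change of 3.14 (SE 0.19). Gm26905 held 41.5% of its 31-base words on the opposite strand, so the split of its reads is uncertain. 4933427J07Rik, 1533 bases on chromosome 2 with no gene opposite, measured 74.7 to 78.5 CPM with N6, 85.5 to 116 with NSR and 8.37 to 19.3 with dT, a log2 fold change of 3.44 (SE 0.27). Gm47578 held 44.3% of its 31-base words on the same strand, and 67 genes held some of them, so the split of its reads is uncertain.

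The other loci at the top by fold change were low and had no count in any dT library. Gm13571, opposite Ly75, reached 1.83, 7.91 and 6.50 CPM with N6 and 2.90, 4.67 and 9.25 with NSR. 1700034P13Rik, with no gene opposite, lay between 1.95 and 6.07 CPM in the 6 random-primed libraries. Gm17034, Gm26632, Gm13165, Gm4673 and Far1os had 99 to 165 counts in all over those libraries. Against the floor the 7 loci were at least 13.4-fold to at least 35.4-fold higher.

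The 6 loci called lower were higher with dT. For Gm37335, Gm37401 and 4930566F21Rik nearly all of the sequence lay opposite exons of other genes. Gm37335, 447 bases wholly opposite Hs6st1, a heparan sulfate sulfotransferase gene, had no count with N6 or NSR and 1.58, 3.38 and 2.73 CPM with dT. Gm37401, 347 bases of which 93.4% lie opposite Rhoa, a small GTPase gene, measured at most 2.85 CPM with N6 or NSR and 7.33, 23.3 and 5.21 with dT. Rhoa itself was higher with random primers, by 0.52 (SE 0.15). 4930566F21Rik, wholly opposite exons of other genes, measured 4.81 to 15.5 CPM with random primers and 40.1, 55.5 and 51.4 with dT. Of its 31-base words, 79.8% occurred on the opposite strand in 4930548H24Rik and 18.8% in Gpn1.

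Gt(ROSA)26Sor, AA465934 and Gm15564 had no exon opposite. Gt(ROSA)26Sor, the transcript of the locus widely used for mouse transgenes, measured 8.35, 6.39 and 4.22 CPM with N6, 7.99, 0.619 and 3.23 with NSR and 46.5, 30.0 and 43.5 with dT, without overlap. Its log2 fold change was -2.06 (SE 0.61, adjusted p = 0.0300). AA465934, 356 bases on chromosome 11, measured at most 1.80 CPM with random primers and 13.3, 7.47 and 11.8 with dT. Gm15564 was called at -0.32 (SE 0.10, adjusted p = 0.0395), and on library totals it stood at 338 to 519 CPM with random primers against 971 to 1053 with dT. Leaving out N6 replicate 2 reduced the 6 calls to 1, and leaving out any other library gave 2 to 6. Of the 21 alternatives, AA465934 and Gm37401 lost the call in 15 each, Gm15564 in 10, 4930566F21Rik in 8 and Gt(ROSA)26Sor in 5, while Gm37335 kept it in all.

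**Figure D3:**
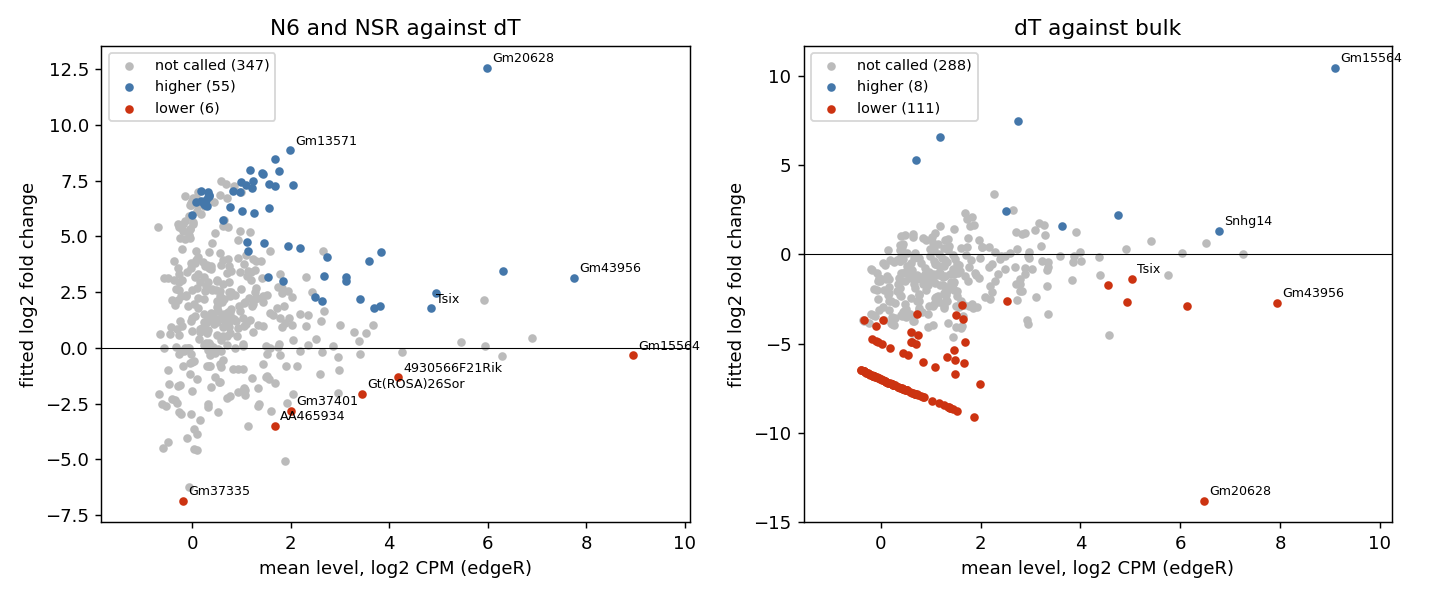
Fitted log2 fold change of each tested antisense locus against its mean level, for N6 and NSR against dT (left) and dT against bulk (right), with called loci in colour. On the left 55 loci are called higher and 6 lower; the dense descending line of red points on the right holds loci with no count in dT.

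The features of the called loci were set beside those of all tested loci, with no test. A poly(A) signal lay in the last 50 bases of 39.6% of the loci called higher, 66.7% of those called lower (4 of 6) and 48.2% of all tested. A run of 10 or more A was found in 24.5% of the loci called higher, in none of the 6 called lower and in 14.3% of all tested. Exon overlap with an opposite gene was found in 56.6% of loci called higher and 57.3% of all tested. The rank correlation between the change of a locus and that of the gene opposite was 0.09 over 198 exon-overlapping pairs. It was 0.13 over 97 pairs that overlap in span only, both given as descriptions over the same libraries.

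Genes named after their partner with the ending os gave a list of opposite genes. It holds 263 antisense gene names, of which 52 passed the filter, and 227 partner symbols, of which 153 did. In random primers against dT, 6 of the 52 antisense loci were called higher and none lower, with a median of 2.23. Of the 153 partners, 16 were called higher and 4 lower, with a median of 0.29. Both shares called higher were near the 9.58% of all tested loci.

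NSR and N6 gave no antisense locus past the threshold. In 6 NSR and NSRdT against 6 N6 and N6dT libraries, edgeR's quasi-likelihood test called 0 of 408 loci higher (0.0446% of all loci were) and 0 lower (0.127%), while 15 had an unadjusted p under 0.05. DESeq2 called 0 higher and 1 lower, and over all loci 36 and 75. Scaling to library totals raised the median of all loci by 0.41 and gave 2 antisense loci higher, and 525 over all loci. For Tsix the log2 fold change was -0.03 (SE 0.30).

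Adding dT to the random primers lowered 2 antisense loci and raised none, where 0.376% and 1.8% of all loci were called and 26 antisense loci had an unadjusted p under 0.05. DESeq2 called 2 antisense loci higher, and 414 over all loci. Gm43956 went from 216 to 362 CPM without dT to 138 to 237 with it, a log2 fold change of -0.87 (SE 0.13, adjusted p = 0.000759). Gm15564 was the other locus called lower, at -0.40 on the log2 scale (SE 0.08, adjusted p = 0.0156). On library totals it stood at 405, 389 and 416 CPM with N6dT against 338, 388 and 391 with N6, and at 314, 332 and 407 with NSRdT against 426, 478 and 519 with NSR, so only the NSR pair was without overlap and lower. The 2 calls became 1 without N6 replicate 2 or 3, N6dT replicate 2, NSR replicate 3, or NSRdT replicate 1 or 2. In 408 loci no difference between the effect of dT in N6 and in NSR passed the edgeR test of the interaction (smallest adjusted p = 0.50, with 23 loci under an unadjusted 0.05).

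Each primer set was then set against bulk, and these 5 comparisons share the same bulk libraries. Input, kit, rRNA removal and PCR cycles differ together, and for every set but N6 the primers differ too, so these comparisons cannot separate them. With dT, 111 of 407 tested antisense loci were lower than bulk (27.3%, where 12.0% of all loci were) and 8 higher (6.92% of all). All 111 had no overlap and 77 had no count in dT, with no such counts over all loci to set beside them. The count of 111 rests on single bulk libraries: it was 4 without bulk replicate 1, 73 without replicate 2, the one with the primitive endoderm signal, and 2 without replicate 3. Without a dT library it was 205 to 224. The 8 higher became 1, 3 and 1 without bulk replicate 1, 2 and 3, and 18, 12 and 10 without dT replicate 1, 2 and 3. Counts over all loci moved likewise. Without bulk replicate 1, 2 and 3 the 1881 lower became 134, 964 and 119, and the 1087 higher became 223, 443 and 180. Without a dT library they became 3377 to 3437 lower and 1572 to 1668 higher. Under 2 CPM 39.9% of antisense loci and 37.3% of all loci were called lower, and at 8 CPM and over 15.4% and 6.7%.

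Some of the loci lower with dT than in bulk were abundant. Gm20628 was at least 540-fold lower with dT than in bulk (adjusted p = 3.30e-04). Gm43956 measured 456, 446 and 495 CPM in bulk and 81.4, 53.6 and 44.2 with dT, a log2 fold change of -2.70 (SE 0.24). 4933427J07Rik and Gm44206 were lower by -2.87 and -2.68, and Gm44206 lies opposite Mbd4, a DNA glycosylase gene. Tsix measured 53.8, 46.0 and 54.1 CPM in bulk, and its log2 fold change with dT was -1.36 (SE 0.29, adjusted p = 0.0202). The dT libraries are the same as in the comparison with random primers, so the 2 sets of values share them.

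The edgeR test called few loci between the random-primed sets and bulk. N6 gave 3 higher (3.31% of all loci were) and 7 lower (3.88%) of 381, and NSR 6 higher (4.02%) and 12 lower (4.72%) of 397. N6dT gave 3 higher (2.71%) and 3 lower (2.09%) of 384, and NSRdT 7 higher (2.69%) and 4 lower (2.56%) of 417. Scaling to library totals changed these splits to 1 and 93, 2 and 55, 2 and 88, and 5 and 22, and moved the median of all loci by between -0.72 and -1.36. Over all loci it called 141, 180, 129 and 180 higher and 8575, 5932, 7960 and 3745 lower. Without bulk replicate 1, 2 or 3 the antisense loci lower became 0 with NSR, N6dT and NSRdT, and with N6 they became 1, 0 and 0. Without one of their own libraries they became 23 to 33 with N6, 33 to 46 with NSR, 14 to 20 with N6dT and 17 to 32 with NSRdT. The loci higher became 12 to 15, 15 to 20, 6 to 12 and 14 to 16 in the same order, and 1 to 3 without a bulk library. Lower calls over all loci without a bulk library were 190 to 216, 199 to 236, 91 to 115 and 111 to 146 in that order. Without one of their own libraries they were 1168 to 1282, 1487 to 1499, 690 to 781 and 897 to 1016. DESeq2 called 15, 13, 15 and 15 antisense loci higher, and 1116, 1275, 1035 and 1063 over all loci. Of the loci named as lower with N6, 5 had no count in any N6 library and 74 to 104 counts over bulk.

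Gm15564 was the one antisense locus called higher than bulk in all 5 primer sets. It has 4 exons and 402 bases at chr16:35966753-35983230, inside the span of Parp9 without exon overlap. Bulk held 0.560, 1.22 and 0.710 CPM, N6 338, 388 and 391, NSR 426, 478 and 519, and NSRdT 314, 332 and 407. With dT it reached 971, 984 and 1053 CPM. The log2 fold change against bulk was 10.47 (SE 0.26) with dT, 10.14 with N6, 10.13 with NSR, and for the mixtures 10.09 (N6dT) and 9.41 (NSRdT), and each passed in all 13 alternatives. It shared 5.91% of its 31-base words with Lars2, the mitochondrial leucyl-tRNA synthetase gene, on the same strand. The share of rRNA and mitochondrial rows was 9.41% to 9.92% of the counts with dT, 32.2% to 32.8% with N6 and 2.25% to 2.59% in bulk. Its part in the level of Gm15564 was not tested.

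Snhg14 was higher than bulk in 4 sets. It is the long host transcript of imprinted small nucleolar RNAs that runs antisense to Ube3a. Its leading row, 2193 bases at chr7:59969577-59974431, had no gene opposite in vM21 and so does not overlap Ube3a. Bulk measured 70.2, 67.4 and 65.8 CPM, and dT 151, 168 and 109.7, without overlap. The log2 fold change was 1.33 (SE 0.18) with dT, 1.27 (SE 0.12) with NSRdT, 1.09 (SE 0.24) with NSR and 0.98 (SE 0.12) with N6dT. On library totals N6dT was lower than bulk, by -0.22. Only the NSRdT call passed in all 13 alternatives. The N6dT and NSR calls were lost without any one bulk library, and the dT call without bulk replicate 1 or 3. With dT, Ube3a was lower than bulk by -0.70 (SE 0.14), and with NSRdT higher by 0.83 (SE 0.11).

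The other loci above bulk differed from set to set. Gm37401 measured 0, 0.115 and 0.118 CPM in bulk and passed in dT, N6dT and NSRdT, with log2 fold changes of 7.46, 6.44 and 6.77. Gm42457, wholly opposite Mfsd14a, passed in dT, at 6.42, 1.21 and 3.67 CPM against at most 0.136 in bulk. Gm16586 passed in N6 by 0.77 (SE 0.14) and turned to -0.59 on library totals, and all of its 31-base words also occur in Hnrnpu on the same strand. Tug1, a widely expressed long non-coding RNA whose matched antisense rows had no gene opposite in vM21, measured 154, 152 and 144 CPM with NSRdT and 166, 165 and 165 in bulk. Its call at 0.58 (SE 0.09) turned to -0.14 on library totals. Nespas was lower with NSRdT, at 12.8, 10.31 and 13.8 CPM against 46.1, 51.0 and 50.5 in bulk, by -1.28 (SE 0.21). The calls of Gm42457, Gm16586, Tug1 and Nespas, and of Gm37401 in dT and N6dT, were lost without any one bulk library and under a replicate block. The NSRdT call of Gm37401 was lost without bulk replicate 2 or 3 and under the block.

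**Figure D4:**
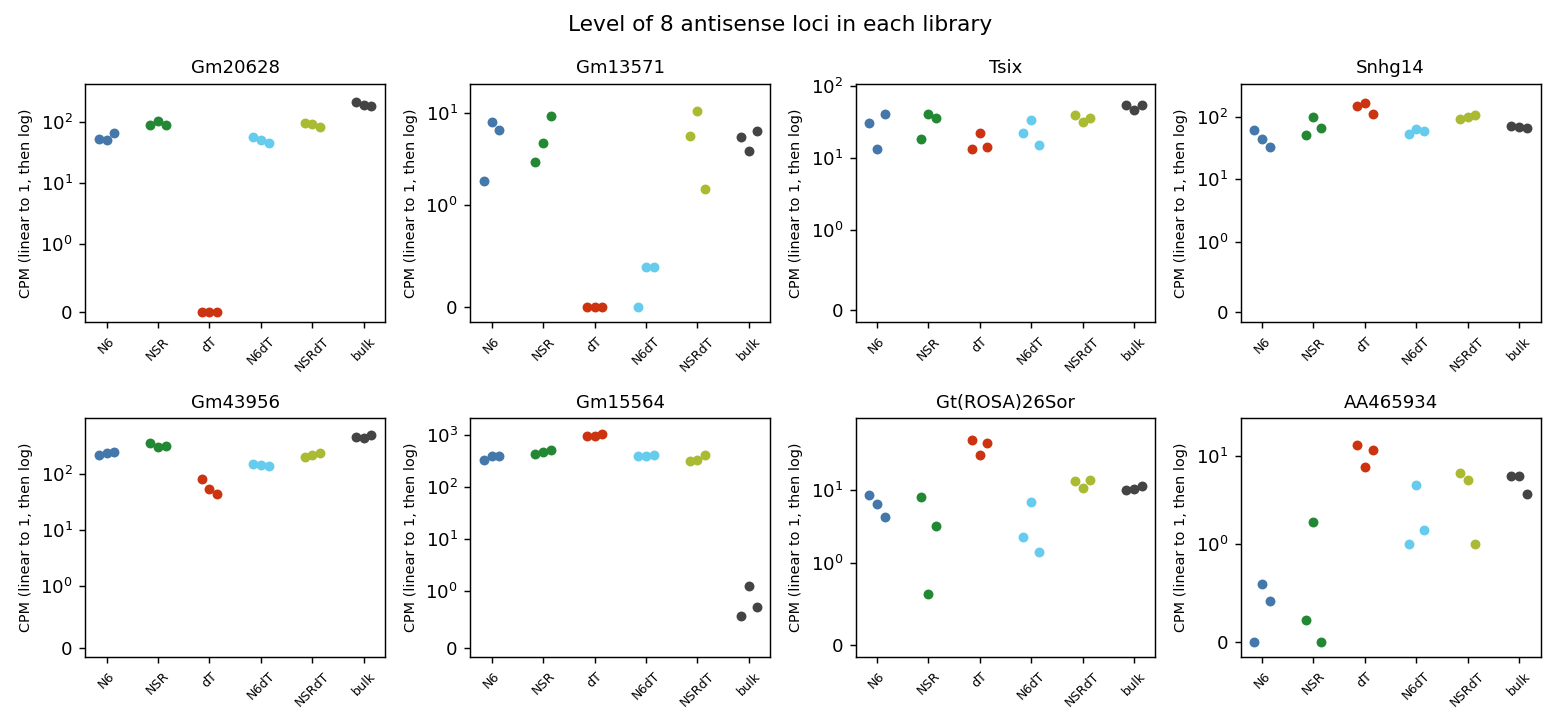
CPM of library totals of 8 antisense loci in each of the 18 libraries, on an axis that is linear up to 1 and logarithmic above. Gm20628 and Gm13571 are at 0 in all 3 dT libraries, and Gm15564 is near 1 in bulk and above 300 in every RT-RamDA library.

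Levels were compared between loci per length. In bulk, Gm43956 held 945 CPM per kilobase, Gm20628 60.03, Snhg14 30.9 and Tsix 11.9. With dT the same loci held 121, 0, 65.2 and 3.88 CPM per kilobase, and Gm15564 2495. In bulk 42 antisense loci reached a mean of 10 CPM, against 28 with NSRdT, 26 with dT, 21 with NSR, 20 with N6dT and 19 with N6.

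Most of the antisense RNAs known by name from development or disease had few counts. Of the 18 names looked for, 12 had an antisense row and 4 passed the filter somewhere: Tsix, Nespas, Six3os1 and Wt1os. Hoxa11os had no count in any library, and Pax6os1 1, Hotairm1 9, Hoxb3os 11 and Dlx6os1 11 over all 18. Six3os1 had 172 counts in all, with 1.13 to 1.91 CPM in bulk and 0, 0 and 3.72 with dT. Wt1os was called higher than bulk with NSRdT, at 1.41, 2.65 and 2.61 CPM against 0.468, 0.312 and 0.248. That call was lost in 5 of 13 alternatives, among them leaving out any one bulk library.

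Over the 15 RT-RamDA libraries, the loci whose log levels followed Tsix most closely were Tbx3, Atxn2l and Ube4a, with Pearson correlations of 0.94, 0.90 and 0.90. These values describe the same libraries and were picked as the highest of all loci.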

How the data were processed

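RNA-seq was measured in 18 libraries, 3 for each of 5 RT-RamDA primer sets and 3 of bulk. The authors deposited 1 table of estimated counts per transcript, not scaled to depth, whose row names follow GENCODE, per the file headers. Reads were demultiplexed with bcl2fastq 2.16.0.10 and the build was mm10, per the submitters' processing notes. The quantifier and its strand setting were not given in the sources used here, so transcripts that share sequence can be credited with each other's reads. ERCC spike-in rows (92) were kept out of all totals.

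From the table, the antisense rows of each gene identifier were summed and rounded to whole counts, with 47753 loci in all. In 110 genes with both antisense and other rows, the antisense part was kept as a locus of its own. Detection used counts thinned without replacement to one total. Levels are CPM of the library total, and fold changes come from edgeR 4.0.16 (R 4.3.3) with TMM scaling, its default filter on low counts and the quasi-likelihood test, 2-sided, adjusted over all loci. The 3 contrasts among primer sets came from 1 fit over 15 libraries. Against bulk, each primer set had a fit of its own over 6 libraries. The SE is the log2 fold change divided by the square root of F. Sequences, lengths and overlaps came from GENCODE vM21.

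The loci named were, for each comparison, up to 8 called loci per direction with the largest fold change and no overlap between libraries, the 10 highest in bulk, the 3 highest in bulk in each length class, and 18 listed names. Any other locus, and the genes beside it, was named after its values were seen. Members and lists were chosen with earlier results of these data known. On simulated data with 200 changed loci, the test of random primers against dT recovered 33.3% of 4-fold changes over 15568 loci, and 58.8% of those at 8 CPM and over. It recovered 3.26% of 2-fold changes, so smaller differences could be missed. Alternatives were DESeq2 1.42.0, other scalings, no filter, single rows, other detection limits, no thinning, a replicate block and leaving out each library. Replicate numbers were not taken as pairs.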

Additional observations from a re-analysis of the deposited data

Results flagged for a closer look

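The ERCC spike-ins, synthetic RNAs outside the comparisons above, gave counts in every library. The lowest total was 28102, in N6 replicate 2, and the highest was 122973, in bulk replicate 2. They were 0.355% to 0.536% of all counts in RT-RamDA and 0.890% to 1.23% in bulk. No antisense level was scaled by them.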

How the results depend on the processing

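Of the named loci, 758 values under an alternative kept direction and side of the threshold, 291 no longer passed and 4 reversed. All 4 reversals came with library totals alone: Gm16586 in N6 against bulk (-0.59), Gm43956 in NSR against bulk (-0.51), Snhg14 in N6dT against bulk (-0.22) and Tug1 in NSRdT against bulk (-0.14). In those 4 comparisons, in the same order, that scaling moved the median of all loci by -1.36, -1, -1.2 and -0.72. The cause was not tested. Rows detected with 3 counts, 10 counts and no thinning were 417, 157 and 684.7 with N6, 487, 198 and 770.3 with NSR, 298, 146.3 and 439.7 with dT, 446.7, 156 and 752 with N6dT, 512.7, 224.7 and 772 with NSRdT and 802, 317 and 1712 in bulk. Without rRNA and mitochondrial rows before thinning they were 700.7 with N6dT and 1343 in bulk. The percent of bulk rows recovered with 3 and 10 counts was 54.27 and 25.4 with N6, 58.8 and 30.07 with NSR, 33.73 and 20.87 with dT, 57.2 and 26.6 with N6dT and 62.47 and 35.67 with NSRdT. Without thinning it was 44.07 with dT and 73.47 with N6dT, and without rRNA and mitochondrial rows 40.6 with dT. Summed CPM without those rows in the total was 2878, 3663, 2830, 2757 and 3410 in N6, NSR, dT, N6dT and NSRdT, and without Gm15564's leading row 1570, 2090, 1555, 1527 and 2191.

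Counts over all loci also moved between settings, as with DESeq2 in random primers against dT, to 2535 higher and 1432 lower. Tested per row, that comparison gave 1789 higher and 1264 lower over all rows. With no filter, dT against bulk gave 810 higher and 2696 lower over all loci. Counts of called antisense loci follow as higher, then lower, where they moved by over 1.5 times. With DESeq2 they were 106 and 10 for random primers against dT, 1 lower for NSR against N6, 2 higher for dT added, 15 and 12 for N6, 13 higher for NSR, 15 and 8 for N6dT and 15 and 12 for NSRdT against bulk. Per row they were 26 and 3 for random primers against dT, 18 lower for N6, 3 higher for NSR, 8 lower for N6dT and 4 and 9 for NSRdT. With library totals they were 23 lower for random primers against dT, 2 higher for NSR against N6, 1 and 1 for dT added, 1 and 93 for N6, 2 and 55 for NSR, 88 lower for N6dT and 22 lower for NSRdT. With DESeq2's size factors in edgeR N6 gave 5 higher. With no filter dT added gave 2 higher, N6 1 and 1, NSR 3 and 1, NSRdT 3 and 1, and dT 227 lower.

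With a replicate block in edgeR, random primers against dT gave 40 higher and 4 lower, N6 against bulk 1 and 1, NSR 3 and 0, dT 2 and 4, N6dT 0 lower and NSRdT 2 and 0. Over all loci the block gave 1245 higher and 1053 lower for random primers against dT. Against bulk it gave 289 and 288 with N6, 279 and 308 with NSR and 365 and 342 with dT. For the mixtures it gave 182 and 133 (N6dT) and 167 and 141 (NSRdT). The numbers did not pair the libraries: over 7173 loci, 30 pairs with the same number correlated between -0.038 and 0.043 and 60 other pairs between -0.032 and 0.038.

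With each library left out in turn, mean rows detected were 630.5 to 651 with N6, 696.5 to 718 with NSR, 390.5 to 415 with dT, 695.5 to 698.5 with N6dT, 724 to 751.5 with NSRdT and 1433 to 1468 in bulk. Called loci ranged from 36 to 50 higher and 1 to 6 lower for random primers against dT, 0 to 1 and 1 to 2 for dT added, 1 to 15 and 0 to 33 for N6 against bulk, 2 to 20 and 0 to 46 for NSR, 1 to 18 and 2 to 224 for dT, 1 to 12 and 0 to 20 for N6dT and 2 to 16 and 0 to 32 for NSRdT.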
